A study of Caenorhabditis elegans with 9 samples.

Results

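The saposin-like genes spp-1, spp-2, spp-3, spp-5, spp-8, spp-10, spp-14, spp-17 and spp-18 were followed in whole Caenorhabditis elegans given a graphene material. They were chosen by name, through their WormBase gene IDs, with earlier results of these data known. They are 9 of the 46284 genes of the expression table and 9 of its 30 genes named spp. All animals were of the strain N2, labelled wild type, and spent 12 h in liquid culture before RNA was made from 500 animals per sample. There were 3 libraries with amino-functionalized graphene oxide (GONH2), 3 with plain graphene oxide (GO, sheets of carbon that carry oxygen groups) and 3 with neither material (control). The labels give neither age nor dose, nor whether the replicates were grown apart. P-values therefore measure only the spread between these samples, which may be technical.

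Saposin-like proteins are small, disulfide-bonded helical proteins that bind lipid membranes. In mammals, saposins help lysosomal enzymes to break down sphingolipids, and relatives such as NK-lysin, and amoebapores in amoebae, make membranes leak and kill microbes. In C. elegans several of them, also called caenopores, are made in the intestine, where they act on ingested bacteria. spp-5 encodes a pore-forming, antibacterial caenopore, and spp-1 a protein with antibacterial activity. spp-10 encodes a larger protein related to the mammalian saposin precursor.

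In the WBcel235 annotation the 9 genes are protein-coding and lie on 4 chromosomes. spp-3 (WBGene00004988, X, 7314969 to 7315353), spp-2 (WBGene00004987, X, 7315995 to 7316818) and spp-5 (WBGene00004990, X, 7319937 to 7320354) lie close together on the minus strand, and spp-14 (WBGene00004999, X, 7725979 to 7726383) lies on the plus strand of the same chromosome. spp-10 (WBGene00004995, IV, 8477180 to 8480656) and spp-8 (WBGene00004993, IV, 8481664 to 8483621) are neighbours on the plus strand, 1007 bases apart, and spp-18 (WBGene00005003, IV, 9593712 to 9594413) lies on the same chromosome. spp-17 (WBGene00005002) is on chromosome I from 1016405 to 1017176, and spp-1 (WBGene00004986) on chromosome III from 10355098 to 10355668. spp-10 and spp-8 are the long genes of the group, with 1518 and 1298 exonic bases, against 343 to 522 in the other 7. spp-1 overlaps T07C4.3 on the opposite strand by 19 bases, and spp-10 overlaps hlh-12, also on the opposite strand. The library kit keeps the strand, but whether the counting used it is not stated.

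Levels are given in FPKM (sequenced fragments per kilobase of a gene's transcript, relative to all fragments mapped in that library). The measure takes gene length into account, but whether it compares genes of unlike length fairly was not tested. The most abundant members, spp-5, spp-14, spp-3 and spp-17, were also the shortest, with 370, 356, 343 and 365 exonic bases. All 9 members had at least 1 FPKM in every library and passed the filter on low values. spp-5 had the highest level, with a mean over the 9 libraries of 2365 FPKM, which was place 56 among all genes of the table. spp-14 followed with 1111 ± 112 FPKM, then spp-3 with 794 ± 76.3 and spp-17 with 793 ± 76.7 FPKM (SD, n = 9), a pair with nearly equal means. The SDs of this paragraph are over all 9 libraries and so include differences between the groups. spp-10 had 433 ± 14.01 FPKM and spp-1 318 ± 35.2 FPKM. spp-2 averaged 236 ± 61.7 FPKM, below spp-1 in GONH2 and control libraries but not in GO libraries, where spp-2 had 289.6 to 307 FPKM and spp-1 254 to 295 FPKM. spp-18 had 57.0 ± 10.8 FPKM and spp-8 37.0 ± 4.75 FPKM. Relative to its mean, spp-2 varied most over the 9 libraries (coefficient of variation 26.2%), followed by spp-18 (19.0%), and spp-10 varied least (3.24%).

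**Figure D1:**
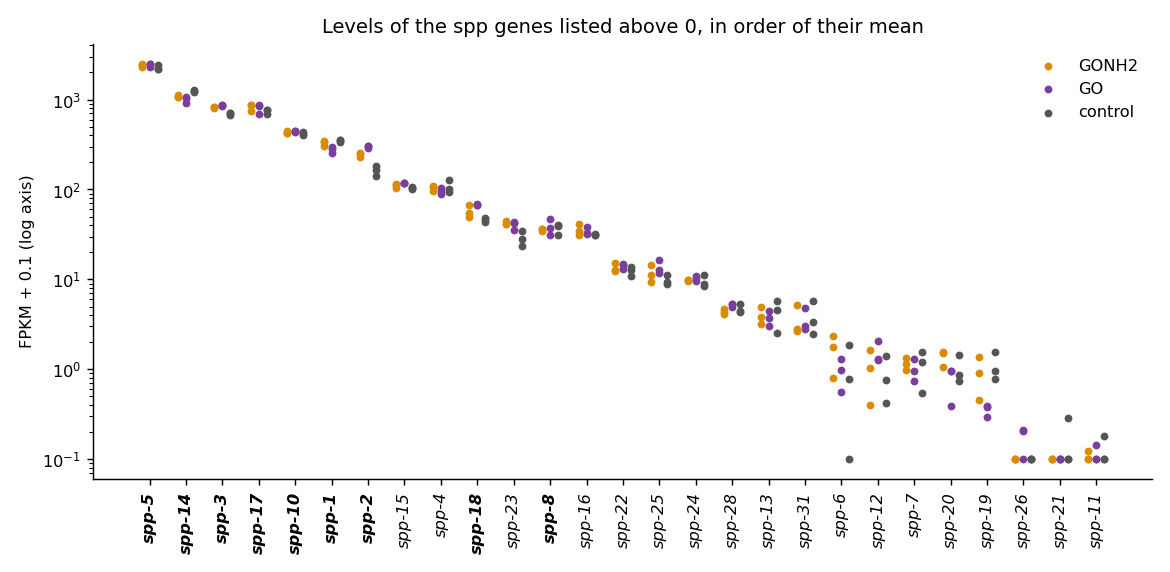
FPKM + 0.1 on a log axis for the 27 spp genes listed above 0 in at least 1 library, in order of their mean level, with 3 points each for GONH2, GO and control. The 9 genes described here are in bold type and include the first 7 of the order, and the points of spp-2 and spp-18 lie visibly lower in control than in GO.

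Together the 9 genes held 94.8% of the FPKM of all genes named spp. Of the 21 other spp genes in the table, 14 passed the filter, 4 were listed above 0 but below it, and spp-9, spp-29 and spp-30 were listed at 0 in all libraries. The summed level of the 9 members was 5964 to 6465 FPKM in GONH2 libraries, 5931 to 6420 in GO libraries and 5786 to 6126 in control libraries, so the groups overlapped in the total. This sum was 0.600 to 0.654% of the FPKM of a library.

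Which of these genes respond to plain graphene oxide was asked by comparing GO with control. spp-2, spp-3 and spp-18 rose and spp-14 fell, that is 4 of 9 members past the threshold, where 1.26% of the 12849 genes tested were called. The 3 rises stand against 1.08% of all genes called higher, and the 1 fall against 0.179% called lower. Because the 9 were chosen with earlier results known, their share does not stand for the family. Of the other spp genes, 0 of 14 tested were called with either material. The threshold is an adjusted p of 0.05 from limma's moderated test on log2(FPKM + 1), adjusted over all genes tested. The median difference of the 9 members was 0.12 on that scale, against 0.024 over all genes. GO and control libraries stood apart without overlap in 6 members, 4 higher and 2 lower, where this held for 12.1% of all genes (9% higher and 3.12% lower). An unadjusted p under 0.05 was reached by 6 members and by 7.74% of all genes.

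The comparison of GONH2 with control puts the same question for the amino-functionalized sheets. spp-2 and spp-3 rose, 2 of 9 members, where 0.436% of all genes were called and 0.358% were called higher. No member fell past the threshold, where 0.0778% of all genes were called lower. The median difference of the members was 0.11, against 0.0031 over all genes. The groups did not overlap in 4 members, 3 higher and 1 lower, where this held for 8.83% of all genes (5.18% higher and 3.65% lower). An unadjusted p under 0.05 was reached by 4 members and by 5.31% of all genes. GO and GONH2 were compared with the same 3 control libraries, so the 2 comparisons are not independent of each other.

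spp-2 had 252, 248 and 231 FPKM in GONH2 libraries, 305, 307 and 289.6 FPKM in GO libraries, and 163, 140.1 and 183 FPKM in control libraries. All 9 values fell into 3 ranges without overlap, with GO highest and control lowest. The rise with GO was 0.90 ± 0.085 on the log2(FPKM + 1) scale (SE; 1.86-fold; adjusted p = 0.00130), and the rise with GONH2 0.59 ± 0.085 (1.51-fold; adjusted p = 0.0276).

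spp-3, its neighbour on the X chromosome, had 829.5, 830.3 and 798 FPKM in GONH2 libraries, 838, 873 and 881 FPKM in GO libraries, and 672, 711 and 714 FPKM in control libraries. Each library with a graphene material lay above each control library. The rise was 0.31 ± 0.035 with GO (1.24-fold; adjusted p = 0.00327) and 0.23 ± 0.035 with GONH2 (1.17-fold; adjusted p = 0.0387). spp-3 thus had a smaller change than spp-2 and a smaller spread, with 95% confidence intervals for GO of 0.23 to 0.39 for spp-3 and 0.70 to 1.09 for spp-2.

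spp-18 had 67.0, 55.1 and 49.8 FPKM in GONH2 libraries, 69.1, 67.6 and 67.9 FPKM in GO libraries, and 43.1, 47.5 and 45.9 FPKM in control libraries. The GO libraries were close together, and the GONH2 libraries spread over most of the distance between the other groups while staying above control. The gene rose by 0.57 ± 0.093 with GO (1.49-fold; adjusted p = 0.0207). With GONH2 the difference was 0.32 ± 0.093 and did not pass (adjusted p = 0.479).

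spp-14 had 1115, 1061 and 1068 FPKM in GONH2 libraries, 926, 1054 and 1045 FPKM in GO libraries, and 1241, 1263 and 1228 FPKM in control libraries. Every library with a graphene material lay below every control library, and the lowest value was that of GO replicate 1. The difference was −0.30 ± 0.050 with GO (0.81-fold; adjusted p = 0.0216), and −0.20 ± 0.050 with GONH2 (adjusted p = 0.270), which did not pass.

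spp-1, one of the antibacterial members, had 349, 339 and 306 FPKM in GONH2 libraries, 283, 295 and 254 FPKM in GO libraries, and 353, 351 and 333 FPKM in control libraries. The GO libraries lay below all 6 others, and GONH2 and control overlapped. The difference from control was −0.32 ± 0.065 with GO (adjusted p = 0.0674) and −0.064 ± 0.065 with GONH2 (adjusted p = 1), and neither passed. For GO this size is close to that of the called spp-14, with a wider error. T07C4.3, which overlaps the end of spp-1, had between 124 and 132 FPKM over the 9 libraries.

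**Figure D2:**
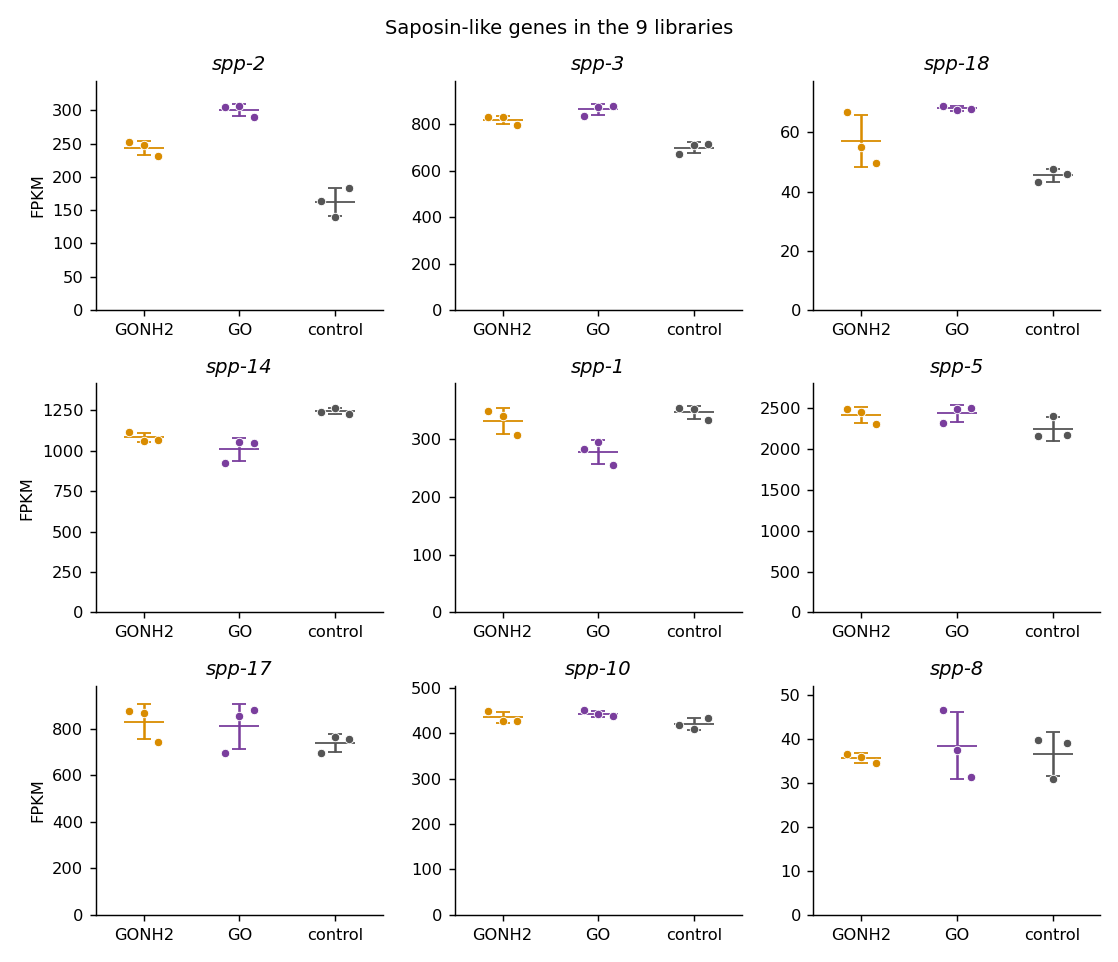
FPKM of each saposin-like gene in GONH2, GO and control animals, with 1 point per library, a horizontal bar for the mean and error bars for the SD (n = 3); each vertical axis starts at 0. spp-2 falls into 3 separate ranges (231 to 252, 289.6 to 307 and 140.1 to 183 FPKM), while the groups overlap for spp-5, spp-17 and spp-8.

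The other 4 members did not pass with either material. spp-5, the abundant pore-forming caenopore, had 2488, 2449.9 and 2307 FPKM in GONH2 libraries, 2315, 2489 and 2499.6 FPKM in GO libraries, and 2159.8, 2408 and 2165 FPKM in control libraries. The control library with 2408 FPKM lay among the others, so the groups overlapped. The difference from control was 0.12 with GO (95% confidence interval −0.0066 to 0.24) and 0.11 with GONH2 (−0.018 to 0.23).

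spp-17 had 878, 868 and 743 FPKM in GONH2 libraries, 698, 854 and 878 FPKM in GO libraries, and 696, 766 and 757 FPKM in control libraries. GO replicate 1 lay at the level of the lowest control library, and the interval of the difference from control ran from −0.096 to 0.35 with GO and from −0.058 to 0.38 with GONH2.

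spp-10, the precursor-like member, had 449.9, 428 and 427 FPKM in GONH2 libraries, 450.1, 442 and 437 FPKM in GO libraries, and 418, 408 and 434 FPKM in control libraries. The GO libraries lay just above the control libraries, by 0.077 (95% confidence interval 0.0029 to 0.15; adjusted p = 0.621), and GONH2 and control overlapped (0.050, −0.024 to 0.12). These are the narrowest intervals among the 9 members, and their upper ends are changes of 11.05% for GO and 8.97% for GONH2.

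spp-8 had 36.7, 36.0 and 34.5 FPKM in GONH2 libraries, 46.5, 37.5 and 31.4 FPKM in GO libraries, and 39.9, 30.9 and 39.2 FPKM in control libraries. The groups overlapped, and the intervals for spp-8 were the widest of the 9, from −0.26 to 0.38 with GO and from −0.35 to 0.29 with GONH2.

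**Figure D3:**
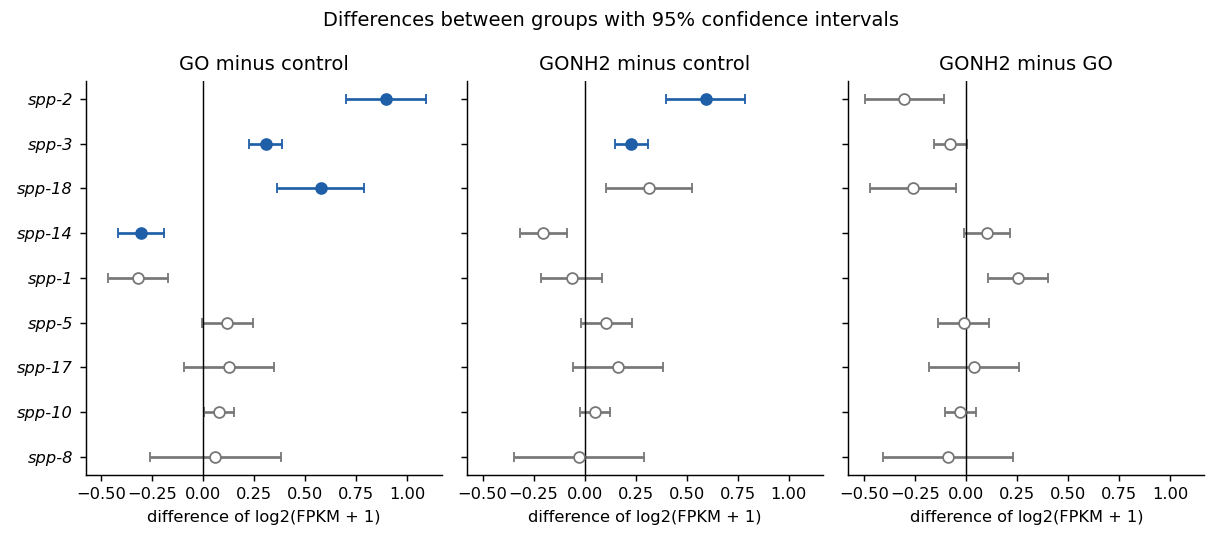
Differences of log2(FPKM + 1) between groups for the 9 genes in 3 panels, with 95% confidence intervals from limma; filled points passed an adjusted p of 0.05. The filled points are spp-2, spp-3, spp-18 and spp-14 for GO minus control and spp-2 and spp-3 for GONH2 minus control, and GONH2 minus GO has none.

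The calls of spp-2 and spp-3 with GO held in all 19 alternative fits, with adjusted p of 7.83e-04 to 0.0116 and 0.00253 to 0.0252. With GONH2 the calls of spp-2 and spp-3 were lost in most of these fits, in 13 and 14 of the 19. The calls of spp-14 and spp-18 with GO were lost in 8 each. Without a mean-variance trend or with only the 6 libraries compared, spp-14 with GO did not pass (adjusted p = 0.0678 and 0.0900), and without the filter on low values neither spp-14 nor spp-18 did (0.0543 and 0.0524). spp-14 with GO lost its call without control replicate 1, 2 or 3 (adjusted p = 0.0858, 0.0759 and 0.0723), and spp-18 lost it without control replicate 1 or 3 (0.0928 and 0.0749) or GO replicate 1, 2 or 3 (0.0878, 0.0902 and 0.0764). The 4 members called with GO thus became 2 without control replicate 1 or 3. The 2 members called with GONH2 became 1 without control replicate 2 or 3, and 0 without control replicate 1, GO replicate 2 or 3, or any 1 of the GONH2 libraries. Without GO replicate 1 there were 2, spp-3 and spp-14, and spp-2 did not pass (0.0573). The difference of spp-2 with GONH2 lay between 0.49 and 0.68 over the alternative fits, and that of spp-3 between 0.20 and 0.25. With the replicate number as a block, 0 members were called with GONH2, and adjusted p with GO was 0.0694 for spp-14, 0.0622 for spp-18 and 0.0112 for spp-1.

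The comparison of GONH2 with GO asks whether the amino-functionalized sheets act on these genes differently from the plain ones. With limma, 0 of 9 members passed, where 0.132% of all genes were called (0.0389% higher and 0.0934% lower). An unadjusted p under 0.05 was reached by 3 members, spp-1, spp-2 and spp-18, and by 4.65% of all genes. The groups did not overlap in 5 members, where this held for 10% of all genes. GONH2 was higher in spp-1 and spp-14 (2.93% of all genes) and lower in spp-2, spp-3 and spp-18 (7.09% of all genes). In each of these 5 genes the mean with GONH2 lay between the means with GO and in control. The 5 were picked from these same libraries, and the share of all genes with this order was not counted. spp-2 averaged 244 ± 10.9 FPKM with GONH2 and 301 ± 9.65 FPKM with GO (SD, n = 3 each), a difference of −0.30 with a 95% confidence interval from −0.50 to −0.11 (adjusted p = 0.686). spp-1 averaged 331 ± 22.3 FPKM with GONH2 and 277 ± 21.1 FPKM with GO, a difference of 0.26 (0.11 to 0.40; adjusted p = 0.560). For spp-18 the difference was −0.26 (−0.47 to −0.046; adjusted p = 0.990). For spp-5 the interval ran from −0.14 to 0.11, and for spp-10 from −0.10 to 0.047, so larger differences between the materials in these 2 genes lie outside the intervals.

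spp-2 and spp-3, 641 bases apart, both rose with both materials, though most alternative fits lost their GONH2 calls. The neighbours spp-10 and spp-8 did not pass with either material. spp-3, spp-2, spp-6, spp-4 and spp-5 take up 5386 bases of the X chromosome in that order, with no other protein-coding gene among them, and spp-6 alone is on the plus strand. spp-6, 522 bases from spp-2, had 1.54 ± 0.780 FPKM with GONH2, 0.853 ± 0.375 FPKM with GO and 0.823 ± 0.900 FPKM in control, near the lower end of what was tested. spp-4 had 95.6 to 111 FPKM with GONH2, 89.7 to 103.9 FPKM with GO and 94.0 to 127 FPKM in control, and did not pass with GO (−0.14, 95% confidence interval −0.39 to 0.11) or GONH2 (−0.041, −0.29 to 0.21). The intervals of spp-4 with GO and of spp-2 with GO do not overlap. On the outer side of spp-3, his-40 lies 4448 bases away and had 3.46 ± 0.189 FPKM with GONH2, 2.44 ± 0.372 FPKM with GO and 3.57 ± 1.17 FPKM in control, without a call. Around spp-14, K09F5.6 had 4.07 to 6.10 FPKM over the 9 libraries. On the other side of spp-14, the yolk protein gene vit-1 had 434 ± 48.9 FPKM with GONH2, 408 ± 92.4 FPKM with GO and 505 ± 99.3 FPKM in control, a difference of −0.31 with GO that did not pass (adjusted p = 0.799). The neighbours of spp-18, pei-1 and F27C8.3, stayed below 0.2 FPKM in all libraries and were not tested.

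**Figure D4:**
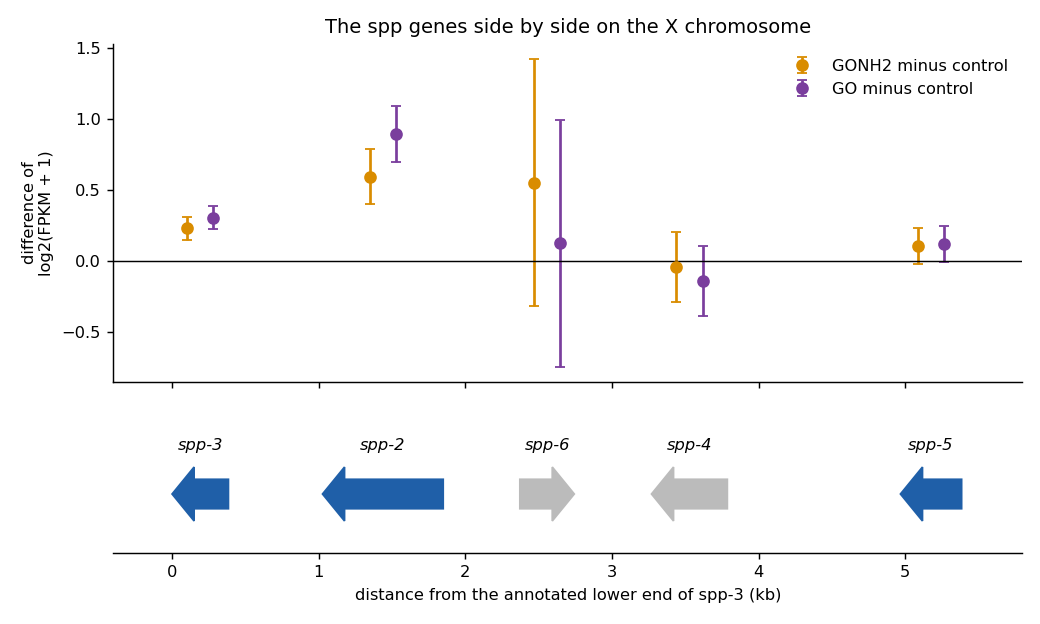
Differences of log2(FPKM + 1) from control for the 5 adjacent spp genes of the X chromosome, with 95% confidence intervals, above a map of the genes drawn to scale in kb from the lower end of spp-3; arrows give the strand and grey arrows the genes that are not among the 9. spp-2 has the largest difference with GO (0.90), the intervals of spp-4 and spp-5 include 0, and spp-6, at about 1 FPKM, has the widest intervals.

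The genes nearest to spp-2 in their pattern over the 9 libraries were also identified. Likeness was the root-mean-square difference of log2(FPKM + 1) after each gene was centred on its own mean, over tested protein-coding genes with a symbol, and it describes these libraries without a test. The nearest 5 were the C-type lectin genes clec-63 (0.0674) and clec-62 (0.0718), hpo-6 (0.0944), the C-type lectin gene clec-85 (0.0962) and the lysozyme gene lys-7 (0.104). clec-63 averaged 859 ± 17.1 FPKM with GONH2, 1069 ± 24.4 FPKM with GO and 613 ± 43.5 FPKM in control. hpo-6 averaged 24.5 ± 2.28 FPKM with GONH2, 28.4 ± 1.32 FPKM with GO and 17.4 ± 2.70 FPKM in control. Both clec-63 and hpo-6 had GO highest and control lowest in the group means, like spp-2. They were picked for nearness to spp-2 over these same libraries, so shared orders of groups and libraries follow from the choice. In spp-2, clec-63 and hpo-6 control replicate 2 was the lowest library, at −0.70, −0.53 and −0.61 from the mean of the gene, and control replicate 3 the highest of the control group, at −0.31, −0.32 and −0.18.

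**Figure D5:**
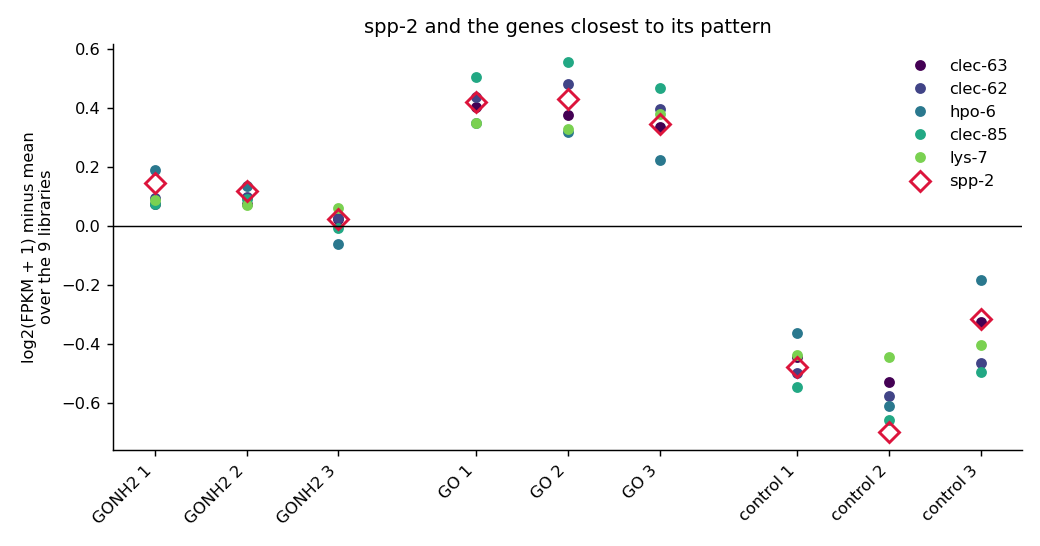
log2(FPKM + 1) minus its mean over the 9 libraries for spp-2 (open diamonds) and the 5 genes closest to it (points), by library. The genes lie between 0.22 and 0.56 in GO libraries, between −0.062 and 0.19 in GONH2 libraries and between −0.70 and −0.18 in control libraries.

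The rest of the spp family had 0 of 14 tested genes called with GO or with GONH2 by limma, where 1.26% and 0.436% of all genes were. An unadjusted p under 0.05 was reached by 3 with GO and 1 with GONH2, where 7.74% and 5.31% of all genes reached it. The median difference of these 14 genes was 0.12 with GO and 0.087 with GONH2, against 0.024 and 0.0031 over all genes. spp-15 and spp-4 were the most abundant of them. spp-15 averaged 110 ± 5.18 FPKM with GONH2, 117 ± 0.842 FPKM with GO and 103.9 ± 2.90 FPKM in control, and its GO libraries lay above control by 0.18 (adjusted p = 0.0954). spp-12, which encodes an antibacterial caenopore, averaged 0.919 FPKM with GONH2, 1.45 FPKM with GO and 0.769 FPKM in control, with overlapping groups.

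Mammalian saposins assist enzymes that cut sphingolipids. Of 11 worm genes for such enzymes, 3 rose and 1 fell with GO, and 0 rose and 1 fell with GONH2. Over all genes, 1.08% were called higher and 0.179% lower with GO, and 0.358% and 0.0778% with GONH2. The median difference was 0.11 with GO and −0.023 with GONH2, against 0.024 and 0.0031 over all genes. gba-1 and gba-4, related to glucocerebrosidase, rose with GO by 0.53 and 0.73 (adjusted p = 0.00151 and 0.00772), and the ceramidase gene asah-2 by 0.37 (adjusted p = 0.00776). With GONH2 gba-1 averaged 20.4 ± 0.728 FPKM, with GO 24.0 ± 0.899 FPKM, and in control 16.4 ± 0.424 FPKM. asm-3, an acid sphingomyelinase gene with 0.517 ± 0.106 FPKM with GONH2, 0.283 ± 0.147 FPKM with GO and 3.21 ± 0.403 FPKM in control, fell with both materials (−1.47 with GONH2 and −1.72 with GO; adjusted p = 0.00343 and 4.60e-04). The abundant hex-1 and asah-1 did not pass (0.13 and −0.21 with GO).

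Other families of effectors against microbes were counted in the same fit. Of 10 tested lysozyme genes, whose products cut bacterial cell walls, 2 rose with GONH2 and 3 with GO, and 0 fell. Over all genes, 0.358% were called higher with GONH2 and 1.08% with GO. The median differences were 0.23 with GONH2 and 0.27 with GO, against 0.0031 and 0.024 over all genes. lys-7 averaged 567 ± 5.43 FPKM with GONH2, 688 ± 11.9 FPKM with GO and 400.2 ± 6.17 FPKM in control. It also passed for GONH2 minus GO (−0.28 ± 0.025, SE; adjusted p = 0.00725). No spp member passed there, but spp-2 differed by −0.30 ± 0.085 (SE), and its GONH2 and GO libraries did not overlap. The call of lys-7 thus goes with a smaller error than in spp-2, not with a larger difference between the materials. lys-4 rose with both materials (0.21 with GONH2 and 0.25 with GO) and lys-8 with GO (0.31), while the abundant ilys-5 and lys-1 did not pass. Of 18 tested antimicrobial peptide genes of the abf, cnc and nlp families, 1 rose with GO and 0 with GONH2. Over all genes these shares were 1.08% and 0.358%. The median differences of the 18 were 0.12 with GONH2 and −0.022 with GO, of opposite sign. The 1 that rose was abf-5, with 9.81 ± 0.284 FPKM with GONH2, 18.6 ± 1.10 FPKM with GO and 8.28 ± 1.94 FPKM in control. The epidermal peptide genes nlp-27 and nlp-28 did not pass. The 18 genes for regulators of immunity and of the intestine ran from the p38 kinase pathway (pmk-1) and insulin signalling (daf-16) to GATA factors of the gut (elt-2). Of these, 0 were called with GO or GONH2 by limma, where 1.26% and 0.436% of all genes were. An unadjusted p under 0.05 was reached by 3 with GO and 2 with GONH2, where 7.74% and 5.31% of all genes reached it. The most abundant regulators, zip-2 and atf-7, differed from control by 0.059 and 0.084 with GO.

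In RNA of whole animals, fewer cells of a type and less RNA per cell cannot be told apart, and no value here shows in which tissue an spp gene changed. Markers of 7 tissues were present, among them all 12 of the intestine, all 8 of neurons and all 6 of body wall muscle at a mean of at least 1 FPKM. The summed level of the 12 intestine markers moved with the groups, at 3177 to 3344 FPKM in GONH2 libraries, 3288 to 3419 FPKM in GO libraries and 2822 to 2920 FPKM in control libraries. Without the protease gene asp-1, which rose with both materials, the sum of the other 11 was 1603 to 1687 FPKM in GONH2 libraries, 1588 to 1708 FPKM in GO libraries and 1608 to 1708 FPKM in control libraries, and all groups overlapped. Most of this smaller sum is cpr-6, which averaged 1091 FPKM with a coefficient of variation of 2.61%. The sum thus cannot show whether less abundant markers moved. Of the 12, asp-1 and ges-1 rose with GO, asp-1 rose with GONH2, and 0 fell. Over all genes, 1.08% were called higher with GO and 0.358% with GONH2. GO and control libraries did not overlap in 4 of the 12, all higher (asp-1, ges-1, vha-6 and pgp-3), against 9% of all genes. With GONH2 this held for 2, also higher, against 5.18%. The differences of 4 of the 12 were below 0 with GO (act-5, ifb-2, ifc-2 and pept-1), and of 3 with GONH2. The median of the 12 was 0.135 with GO and 0.031 with GONH2, against 0.024 and 0.0031 over all genes. The part of these markers in the changes of the spp genes was not tested. The summed levels of markers of the pharynx, neurons, body wall muscle, epidermis, germ line and coelomocytes overlapped between each graphene group and control. Within the 7 tested pharynx markers, however, the muscle genes myo-1, myo-2 and tnt-4 had every GO library below every control library (−0.27, −0.28 and −0.45). This held for 3.12% of all genes. The muscle gene tni-4 was lower in the GO mean, with overlapping groups. In the other direction, 3 of the 7 (pha-4, ceh-22 and phat-3) had differences above 0 with GO. The pharynx median was −0.11 with GONH2 and −0.18 with GO, against 0.0031 and 0.024 over all genes. By limma 0 of 7 passed with either material. An unadjusted p under 0.05 was reached by 2 with GONH2 and 3 with GO, where 5.31% and 7.74% of all genes reached it. The part of these pharynx genes in the changes of the spp genes was not tested.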

How the data were processed

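RNA-seq of 9 samples was used, in 3 groups of 3. Per the labels' protocols, animals were broken with beads in TRIzol, RNA was cleaned with the RNeasy kit, and strand-specific TruSeq libraries were read from both ends. The authors deposited FPKM per WormBase gene ID. The submitters' processing notes name DESeq2 without a role. Aligner, counting program and genome build: not given in the sources used here. Genes were named and placed with the Ensembl release 115 annotation of WBcel235.

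The FPKM were converted to log2(FPKM + 1), so folds of low genes are understated. The 12849 genes that reached 1 FPKM in 3 or more libraries were tested. limma 3.58.1 in R 4.3.3 was fitted to all 9 libraries with group as the only term, a mean-variance trend and Benjamini-Hochberg adjustment over all genes tested. The fit was tested on simulated data. No count method was applied to FPKM.

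FPKM carry no read totals. Of genes below 0.3 FPKM in all libraries, 4.96 to 16.4% shared the commonest ratio to control replicate 1, too few to recover reads, so depth is unknown. Library FPKM summed to 955606 to 1010904. The half-width of the 95% confidence interval of a GO difference had a median of 0.217 (log2).

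The members, the gene lists and the tests were chosen with earlier results of these data known. Named from each list were the called genes (at most 4 per comparison) and the 2 most abundant uncalled ones, from the tested genes the 5 nearest to spp-2, and for called members the nearest protein-coding gene on each side. Genes named otherwise were chosen after their values were seen. They include spp-12, spp-6, pmk-1, daf-16, elt-2, T07C4.3, the other genes beside uncalled members and the tissue markers named singly. Alternatives changed the pseudocount, the filter, the scaling, the trend, the threshold, listed zeros, biotype, 6-library fits, the replicate block and each library left out. Figures were drawn with matplotlib 3.10.9.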

Additional observations from a re-analysis of the deposited data

How the results depend on the processing

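The members called with GO numbered 4, and 2 without a filter on low values or at a threshold of 0.01. They numbered 3 without the mean-variance trend and 3 in the fit to the 6 libraries compared, where spp-14 lost its call (adjusted p = 0.0678 and 0.0900); over the refits without 1 library they numbered 2 to 5. The 2 members called with GONH2 became 1 under median-of-ratios scaling (spp-2) and 1 under quantile scaling (spp-3). They became 0 without the filter, without the mean-variance trend, at a threshold of 0.01, with the replicate block and in the fit to the 6 libraries compared, and 0 to 2 without 1 library. For GONH2 minus GO all 19 alternatives gave 0. The cause was not tested. spp-1 passed with GO under both scalings, with the block and without GONH2 replicate 3 (adjusted p = 0.0270, 0.0397, 0.0112 and 0.0451). No pairing by replicate number was visible: same-numbered libraries had deviations correlated at −0.168 to 0.131, and 2 of 9 libraries correlated best with their own number. With 3 libraries per group this check cannot exclude a pairing. With the replicate block, 3 members (spp-1, spp-2 and spp-3) were called with GO.

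Of 513 values of single genes under an alternative, 453 kept direction and side of the threshold. Most of these were differences that were not called and stayed so. Called differences lost their call in 43 values, 8 each for spp-14 and spp-18 with GO, and 13 for spp-2 and 14 for spp-3 with GONH2. In 12 of the 513 the sign changed, all in differences that were not called. With 1 library left out, spp-8 ranged from −0.083 to 0.19 (GO minus control; −0.056 without control replicate 2), from −0.14 to 0.036 (GONH2 minus control; 0.024 without control replicate 3) and from −0.22 to 0.055 (GONH2 minus GO). For GONH2 minus GO, spp-5 ranged from −0.047 to 0.021 (0.0048 and 0.0078 without GO replicate 2 and 3) and spp-17 from −0.066 to 0.12 (−0.0049 without GONH2 replicate 1), and the sign also changed for spp-5 under median-of-ratios scaling (0.012) and for spp-10 under quantile scaling (8.94e-04). Depth is unknown, so the counting error of low genes such as spp-6, listed at 0 to 2.24 FPKM, could not be estimated.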

Other observations

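Among the genes beside uncalled members, 2 are described because of their values. spp-23, the next gene to spp-17 on chromosome I at 1666 bases, averaged 42.3 ± 1.90 FPKM with GONH2, 40.6 ± 4.47 FPKM with GO and 28.8 ± 5.42 FPKM in control. The libraries with either material lay above all control libraries, but the differences of 0.56 with GONH2 and 0.49 with GO did not pass (adjusted p = 0.229 and 0.192). srlf-3, the next gene to spp-8 on chromosome IV at 3861 bases, averaged 12.0 ± 1.38 FPKM with GONH2, 30.9 ± 3.15 FPKM with GO and 5.42 ± 0.947 FPKM in control, and rose with both materials (adjusted p = 0.0145 and 6.61e-05), while spp-8 did not pass with either. Other genes beside uncalled members differed little from control with GO, T07C4.3 and umps-1 beside spp-1 by −0.014 and −0.013 and T08A9.13 beside spp-5 by −0.054.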
